A study of Mus musculus with 6 samples.

Results

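The 10 genes described here are Trp53, which encodes the transcription factor p53, and 9 genes of p53 output and growth arrest: Mdm2, Aen, Ccng1, Btg2, the cell cycle inhibitor genes Cdkn1a and Cdkn1b, and the Gadd45 genes Gadd45a, Gadd45b and Gadd45g. They were taken by mouse symbol from a table of 57180 Ensembl gene identifiers, each symbol mapping to 1 row, and all 10 passed the filter on low values. RNA was sequenced from wild-type mouse bone marrow-derived macrophages (BMMs), primary cells that form bone-resorbing osteoclasts, after 5 days of osteoclast-inducing culture. There were 3 libraries without and 3 with Visomitin (SkQ1), a plastoquinone antioxidant that is drawn into mitochondria; the comparison asks what Visomitin changes under these conditions. No source used here gives strain, age or dose, or says whether separate mice or cultures were used, so p-values cover the spread among these 6 libraries and that spread may be technical. Levels are TPM, transcript abundance per length scaled to a fixed library total; TPM carry no sequencing depth, and the depth is unknown.

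In most cells p53 is made constantly and removed constantly, because MDM2, itself a p53 target product, marks it for degradation; stress interrupts that loop and p53 then switches on genes for arrest, repair and death. Much of this control acts on the protein, which RNA levels do not show. CDKN1A (p21) and CDKN1B (p27) are inhibitors of cyclin-dependent kinases and have been studied in the cell cycle exit of osteoclast precursors, and the GADD45 proteins are small stress sensors that bind kinases and replication factors.

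The promoters of genes that passed the test for a difference, Gadd45a, Cdkn1b and Mdm2, are shown with that of Cdkn1a, the most abundant of the 10 genes. The letters are RefSeq sequence of build GRCm38.p6, 5′ to 3′ on the gene's strand, ending just before the first start in RefSeq or GENCODE M21, and all 10 genes had an entry in the RefSeq table. Aen, which also passed, is not printed. Cdkn1a, like Aen, has more than 1 annotated start, and the stretch printed for Cdkn1a lies before its first. Capitals mark matches on either strand to a p53 half-site (the degenerate 10-base motif), CCAAT (the box bound by NF-Y), ATTTGCAT (the octamer) or GTAAACA (a forkhead motif).
Gadd45a, chr6:67037458-67037657, minus strand: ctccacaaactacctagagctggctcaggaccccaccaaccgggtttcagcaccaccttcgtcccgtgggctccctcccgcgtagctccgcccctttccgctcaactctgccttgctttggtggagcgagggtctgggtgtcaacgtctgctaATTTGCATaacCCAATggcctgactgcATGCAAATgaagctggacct
Cdkn1b, chr6:134920151-134920400, plus strand: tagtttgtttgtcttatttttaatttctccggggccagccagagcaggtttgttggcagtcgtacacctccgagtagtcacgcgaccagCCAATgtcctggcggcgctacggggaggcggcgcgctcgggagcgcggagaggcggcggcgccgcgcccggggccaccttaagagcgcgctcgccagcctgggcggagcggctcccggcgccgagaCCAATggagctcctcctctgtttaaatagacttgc
Mdm2, chr10:117710759-117711008, minus strand: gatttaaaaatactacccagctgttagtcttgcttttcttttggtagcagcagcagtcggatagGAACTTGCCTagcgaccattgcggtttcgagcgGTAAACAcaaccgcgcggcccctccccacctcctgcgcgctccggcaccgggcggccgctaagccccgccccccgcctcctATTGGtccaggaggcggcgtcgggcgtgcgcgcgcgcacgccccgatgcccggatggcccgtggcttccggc
Cdkn1a, chr17:29090729-29090975, plus strand: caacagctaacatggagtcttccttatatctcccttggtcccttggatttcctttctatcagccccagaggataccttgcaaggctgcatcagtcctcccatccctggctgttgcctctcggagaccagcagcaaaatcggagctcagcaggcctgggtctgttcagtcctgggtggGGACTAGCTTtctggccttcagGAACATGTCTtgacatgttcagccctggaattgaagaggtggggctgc
In the 250 bases before the RefSeq start, a p53 half-site stood in 6 of the 12 windows of the 10 genes, against 7.13% of all 32851 such windows; Aen and Cdkn1a have more than 1 window. The 6 were those of Ccng1, Gadd45a, Mdm2 and Trp53 and 1 each of Aen and Cdkn1a. The half-site of Gadd45a lies between the GENCODE and the RefSeq start, outside the printed stretch. CCAAT stood in 10 of the 12 windows, all but those of Cdkn1a, against 33.8% of all windows, and ATTTGCAT in 2 of the 12, those of Gadd45a and Gadd45g, against 1.60%. GTAAACA was found in Mdm2 alone of the 10 (3.17% of windows), TGACGTCA, the cyclic AMP response element, in Btg2 alone (1.55%), and TGATGNAA, a core of ATF4-bound elements, in Gadd45g alone (3.45%), where it overlaps the octamer. TGANTCA, the AP-1 motif, was in none of the 10 (6.75% of windows). Most of the 10 genes were picked as p53 targets, and a match is only a description of letters. The best known p53 elements of Mdm2 and Gadd45a, in introns, lie outside these windows. Genes with a half-site went both ways: Gadd45a rose with Visomitin, Mdm2 and Aen fell, and Ccng1, Cdkn1a and Trp53 did not pass the test.

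As a check of the cells, the 8 osteoclast markers had summed levels of 11017 to 11969 TPM in controls and 2914 to 3499 TPM with Visomitin. All 8 fell, where 5.03% of all genes tested fell and 2.08% rose. The 5 macrophage markers summed to 4281 to 4555 and 3897 to 5126 TPM; 1 of them, Mrc1, rose (the markers named here and the p53 relatives Trp63 and Trp73 are named after their values were seen). Of 6 stromal markers 5 were tested and 0 passed limma (2 had an unadjusted p under 0.05), with sums of 110.9 to 318 TPM in controls and 73.9 to 163 TPM with Visomitin. The 4 B cell, 4 T cell and 4 erythroid markers reached at most 1.65 TPM, and of 5 neutrophil markers 4 were listed at 0 and S100a8 was at 11.44 to 19.47 TPM in controls and 8.82 to 15.34 TPM with Visomitin. Visomitin 1 stood apart from Visomitin 2 and 3 on the second principal component (25.1 against -17.2 and -16.8; 19.6% of the variance). In bulk RNA, fewer cells of a type and less RNA per cell cannot be told apart, and the part of the lower osteoclast share of RNA in the differences between groups was not tested.

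With Visomitin, 2 of the 10 genes rose, Gadd45a and Cdkn1b, and 2 fell, Mdm2 and Aen, while Trp53, Cdkn1a, Ccng1, Btg2, Gadd45b and Gadd45g did not pass the test. Among all 11753 genes tested, 2.08% rose and 5.03% fell, 7.10% in all (limma on log2(TPM + 1), Benjamini-Hochberg adjusted p under 0.05). Leaving out Visomitin 1, 2 of the 10 rose and 1, Mdm2, fell; leaving out control 1, control 2 or control 3, 2 rose and 0 fell; leaving out Visomitin 2, 1 rose and 0 fell; and leaving out Visomitin 3, 2 rose and 2 fell. Scaling changed the balance over all genes, from 244 higher and 591 lower to 481 and 689 by median ratios and to 557 and 657 by quantiles, but not the counts among the 10. The median log2 fold change of the 10 genes was -0.10, and that of all genes tested was -0.03. Groups did not overlap for 5 of the 10 genes, the 4 that passed and Btg2 (30.4% of all genes tested); 3 of these were higher (11.9% of all) and 2 lower (18.4% of all).

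**Figure D1:**
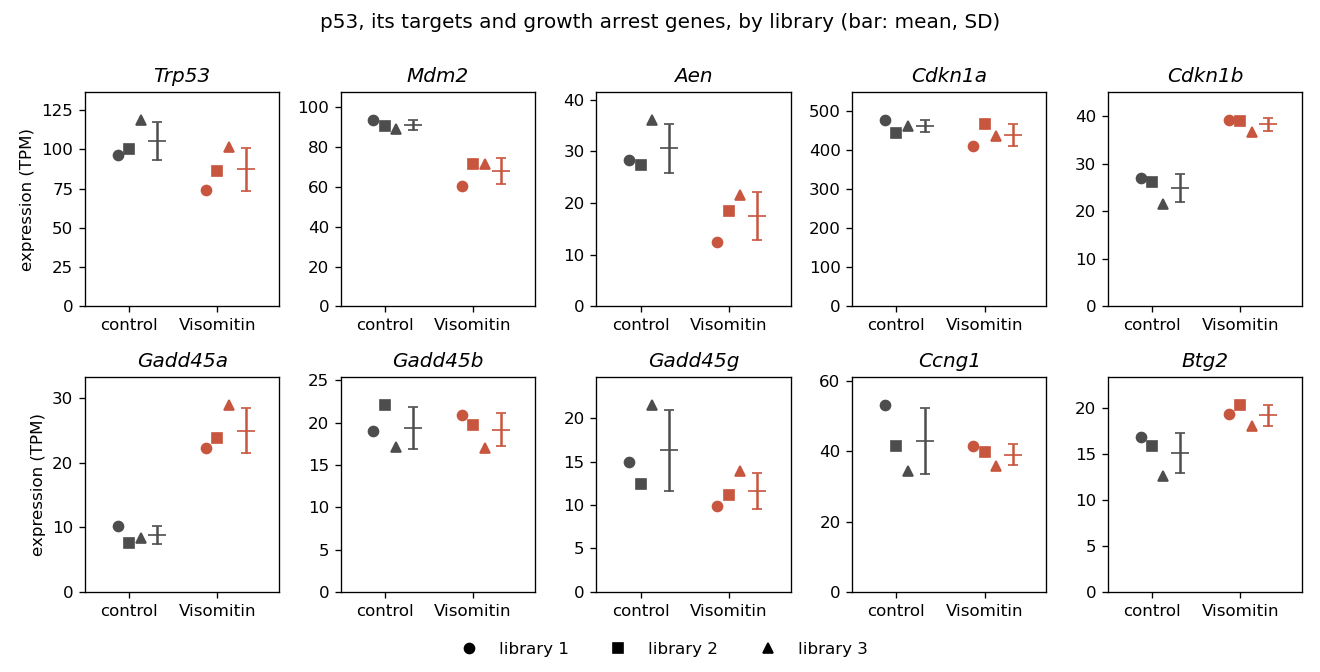
Expression in TPM (vertical axes, each from 0) of the 10 genes in the 3 control and 3 Visomitin libraries; points are libraries and bars are the mean with SD. The Visomitin libraries lie above all controls for Gadd45a, Cdkn1b and Btg2, below all controls for Mdm2 and Aen, and overlap them for the other 5 genes.

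Trp53 itself was at 96.61, 100.05 and 118.71 TPM in control 1 to 3 and at 73.85, 86.45 and 101.18 TPM in Visomitin 1 to 3. Visomitin 3 lay within the control range and Visomitin 1 and 2 below it, so the groups overlap. The means were 105 ± 11.9 and 87.2 ± 13.7 TPM (SD, n = 3), a log2 fold change of -0.27 with a 95% confidence interval of -0.57 to 0.03 that is not adjusted for the number of genes (limma adjusted p = 0.25). Trp53 was an abundant transcript, above 88.9% of tested genes in the controls. Its processed copy Trp53-ps was listed at 0 in all 6 libraries. The 2 p53 relatives, Trp63 and Trp73, were at 0.01 TPM or less.

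Mdm2, the ubiquitin ligase gene that closes the feedback loop on p53, stood at 93.47, 90.31 and 88.71 TPM in the controls and at 60.13, 71.31 and 71.49 TPM with Visomitin. The controls were tightly grouped, every Visomitin library was below them, and Visomitin 1 was the lowest. Mdm2 fell 1.34-fold on the log2(TPM + 1) scale (log2 fold change -0.42, SE 0.09, limma adjusted p = 0.034). The test was missed without control 1 (adjusted p = 0.12), control 2 (0.092), control 3 (0.095) or Visomitin 2 (0.079), and with no filter on low values (0.069) or no trend (0.068), at log2 fold changes of -0.34 to -0.47 whichever library was left out. Within a library, the ratio of Mdm2 to Trp53 TPM was 0.97, 0.90 and 0.75 in the controls and 0.81, 0.82 and 0.71 with Visomitin. Those ratios overlap between the groups.

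Aen, which encodes an exonuclease linked to p53-dependent apoptosis, was at 28.36, 27.43 and 36.12 TPM in the controls and at 12.51, 18.5 and 21.48 TPM with Visomitin. Every Visomitin library was below every control, and in each group library 3 was the highest. Aen fell 1.74-fold (log2 fold change -0.80, SE 0.19, limma adjusted p = 0.046), just inside the threshold. Its call was lost without control 1 (adjusted p = 0.11), control 2 (0.072), control 3 (0.14), Visomitin 1 (0.059) or Visomitin 2 (0.10), with no filter (0.15) and with no trend (0.071); leaving out single libraries gave log2 fold changes of -0.95 to -0.59. From a place above 66.4% of tested genes in the controls, Aen moved to one above 52.8% with Visomitin.

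Of the Cip/Kip inhibitors, Cdkn1b changed and Cdkn1a did not pass. Cdkn1a, for p21, was at 476.82, 444.4 and 461.26 TPM in the controls and at 409.97, 466.21 and 434.56 TPM with Visomitin. The groups overlap, with Visomitin 2 inside the control range. The log2 fold change was -0.08 with an unadjusted 95% interval of -0.26 to 0.10 (limma adjusted p = 0.59), and Cdkn1a stood above 97.1% of tested genes in both groups. A gene on the opposite strand within Cdkn1a, AC167363.2, was at 2.77 to 3.68 TPM; no source used here says whether reads were counted by strand.

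Cdkn1b, for p27, was at 27, 26.29 and 21.64 TPM in the controls and at 39.28, 38.96 and 36.69 TPM with Visomitin. All 3 Visomitin libraries lay close together above every control. It rose 1.52-fold (log2 fold change 0.60, SE 0.11, limma adjusted p = 0.016), and the call was lost only without Visomitin 2 (0.59, adjusted p = 0.067) among the 16 alternatives. Since TPM are per length, the pair can be compared within a library. Cdkn1b made up 5.36%, 5.59% and 4.48% of the summed Cdkn1a and Cdkn1b TPM in the controls and 8.74%, 7.71% and 7.79% with Visomitin. The share was higher in every Visomitin library than in any control, and Cdkn1a remained the larger by 10.4-fold or more in every library.

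Of the 3 Gadd45 genes, Gadd45a rose, and Gadd45b and Gadd45g did not pass. Gadd45a was at 10.26, 7.53 and 8.42 TPM in the controls and at 22.22, 23.78 and 28.87 TPM with Visomitin, so that the lowest Visomitin library was above the highest control. It rose 2.67-fold (log2 fold change 1.42, SE 0.15, limma adjusted p = 0.0011), the only one of the 10 genes to change more than 2-fold. It kept its call under all 16 alternatives, with a log2 fold change of 1.31 to 1.53 when a library was left out. By p-value it was number 7 among the tested genes that were higher with Visomitin. A transcript on the opposite strand over part of Gadd45a, E230016M11Rik, was at 0 to 0.79 TPM.

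Gadd45b, which responds quickly to inflammatory signals in myeloid cells, was at 19.04, 22.06 and 17.11 TPM in the controls and at 20.88, 19.68 and 17.01 TPM with Visomitin. The groups overlap almost fully (log2 fold change -0.01, unadjusted 95% interval -0.31 to 0.28, limma adjusted p = 0.96), and the sign turned under both scalings. Gadd45g was at 14.96, 12.44 and 21.47 TPM in the controls and at 9.83, 11.13 and 13.86 TPM with Visomitin. Only Visomitin 3 reached into the control range, and the difference did not pass (log2 fold change -0.43, unadjusted 95% interval -0.90 to 0.03, limma adjusted p = 0.23).

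Gadd45a took a larger share of the summed Gadd45 transcripts in every Visomitin library than in any control. Gadd45a was 23.2%, 17.9% and 17.9% of the summed Gadd45 TPM in the controls and 42.0%, 43.6% and 48.3% with Visomitin. The Gadd45g share was 33.8%, 29.6% and 45.7% in the controls and 18.6%, 20.4% and 23.2% with Visomitin. In the controls Gadd45a was the least abundant of the 3 in every library, and with Visomitin it was the most abundant in every library. The sum of the 3 was 44.4 ± 2.49 TPM in the controls and 55.8 ± 3.55 TPM with Visomitin (SD, n = 3). These shares are a description, with no test, and a share within a library does not depend on scaling between libraries by a single factor.

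**Figure D2:**
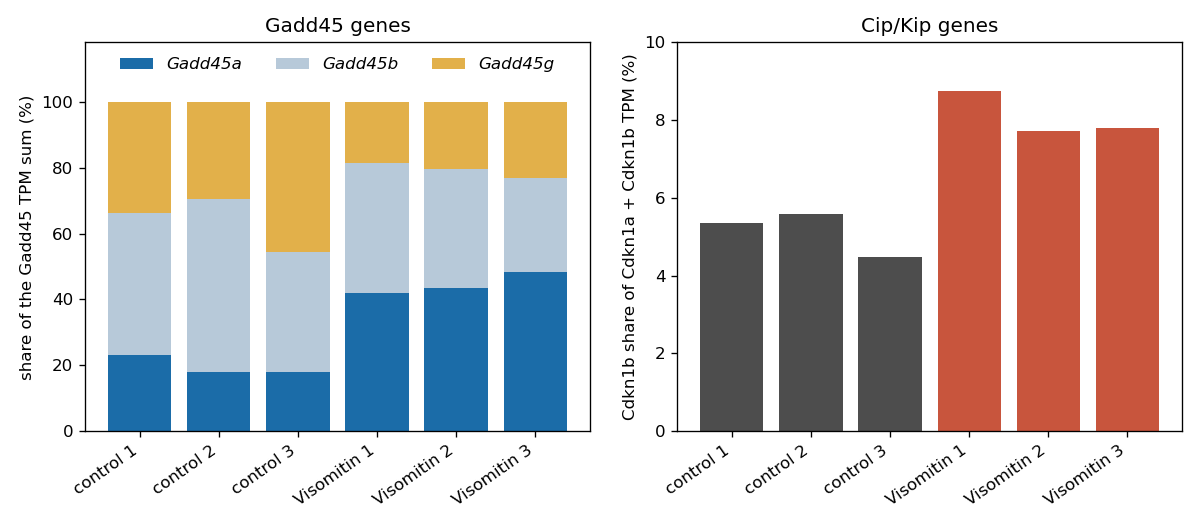
Left, share in percent of each Gadd45 gene in the summed Gadd45 TPM of each library; right, share in percent of Cdkn1b in the summed Cdkn1a and Cdkn1b TPM. Gadd45a goes from 17.9% to 23.2% in the controls to 42.0% to 48.3% with Visomitin, and Cdkn1b from 4.48% to 5.59% to 7.71% to 8.74%.

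Ccng1, for cyclin G1, a p53 target that recruits the phosphatase PP2A, was at 53.13, 41.61 and 34.41 TPM in the controls and at 41.5, 39.94 and 35.9 TPM with Visomitin. All 3 Visomitin values lie inside the wide control range (log2 fold change -0.12, unadjusted 95% interval -0.46 to 0.23, limma adjusted p = 0.69), and the sign turned without control 1 (0.04). Btg2, an antiproliferative gene whose product promotes mRNA deadenylation, was at 16.81, 15.8 and 12.58 TPM in the controls and at 19.28, 20.24 and 17.99 TPM with Visomitin. The groups do not overlap, but the log2 fold change of 0.34 (SE 0.13) missed the threshold (limma adjusted p = 0.15). It passed with array weights, a fit in which noisier libraries count less (0.041), and under no other alternative.

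**Figure D3:**
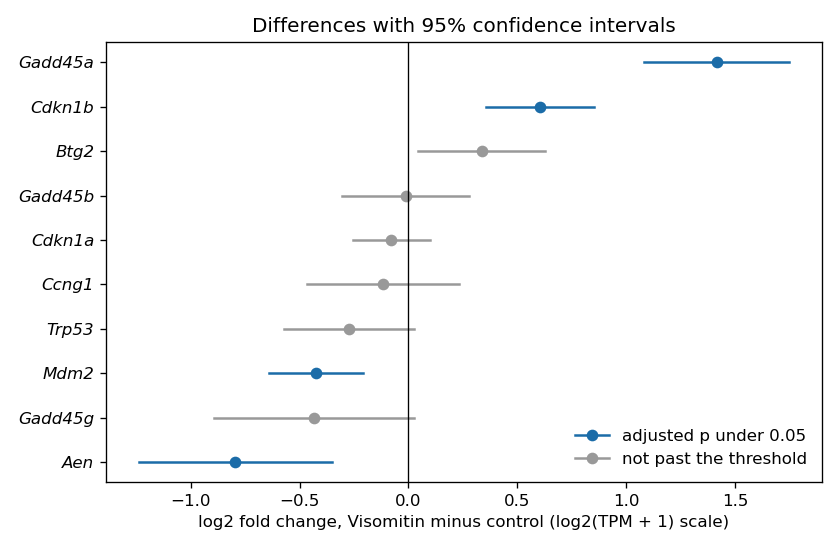
Log2 fold change of each gene, Visomitin minus control, on the log2(TPM + 1) scale (horizontal axis), with unadjusted 95% confidence intervals; blue marks an adjusted p under 0.05. Gadd45a (1.42) and Cdkn1b (0.60) lie to the right of 0, and Mdm2 (-0.42) and Aen (-0.80) to the left.

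By level, the order in the controls was Cdkn1a, Trp53, Mdm2, Ccng1, Aen, Cdkn1b, Gadd45b, Gadd45g, Btg2 and Gadd45a, from a mean of 461 to one of 8.74 TPM. Neighbours whose libraries overlap were Ccng1 and Aen, Cdkn1b and Gadd45b, Gadd45b and Gadd45g, and Gadd45g and Btg2. With Visomitin the first 4 places were the same, and then came Cdkn1b, Gadd45a, Gadd45b, Btg2, Aen and Gadd45g. There the overlapping neighbours were Ccng1 and Cdkn1b, Gadd45b and Btg2, Btg2 and Aen, and Aen and Gadd45g. Gadd45a went from place 10 to place 6 and Aen from place 5 to place 9.

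Other p53 targets also went both ways. Of 30 listed genes 28 were tested, and of these 2 rose, 2 fell and 24 missed the threshold. Among all genes tested, 2.08% rose and 5.03% fell. The median log2 fold change of the 28 was 0.02, with 14 values above 0 and 14 below. An unadjusted p under 0.05 was found for 13 of them, and the share of all genes tested under that limit is not given here. Groups did not overlap for 8 higher genes (11.9% of all genes tested) and 5 lower genes (18.4% of all). Gdf15, a stress cytokine gene also induced outside the p53 pathway, rose from 7.36 ± 0.37 to 15.4 ± 2.33 TPM (log2 fold change 0.96, limma adjusted p = 0.0049; SD, n = 3) and kept its call under all 16 alternatives. Sesn2, a sestrin gene shared with the ATF4 response, rose (0.51, limma adjusted p = 0.043) but lost the call when any library except Visomitin 1 was left out (adjusted p of at most 0.15). Fdxr, the mitochondrial ferredoxin reductase gene, fell from 15.1 ± 0.35 to 10.6 ± 0.71 TPM (-0.47, limma adjusted p = 0.034), a call lost without control 1, control 2, control 3 or Visomitin 2 (up to 0.13). Ak1, an adenylate kinase gene named after its values were seen, fell (-0.79, limma adjusted p = 0.043) and lost the call when any library except control 2 was left out (up to 0.14). The death genes Bax and Bbc3 did not pass, though for both every Visomitin library was above every control. Bax was at 279.41 to 288.78 TPM in controls and 289 to 304 TPM with Visomitin. Bbc3 had a log2 fold change of 0.65 (limma adjusted p = 0.070). Other death genes of the list went both ways and did not pass. Tnfrsf10b was lower without overlap (-0.45, limma adjusted p = 0.13), and Pidd1 (-0.21) and Pmaip1 (-0.01) were below 0. Apaf1 (0.24) and Fas (0.08) were above 0. All of these death genes are named after their values were seen. The list's counts depended on the setting. They were 1 higher and 0 lower with no filter and without control 1, control 3 or Visomitin 2, and 1 higher and 1 lower with no trend and without control 2 or Visomitin 3. They were 4 higher and 1 lower without Visomitin 1, 4 and 3 with median-ratio scaling, 5 and 3 with quantile normalization, and 5 and 4 with array weights.

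Regulators and relatives of p53 gave 0 calls with limma among 15 tested of 17 listed, where 7.1% of all genes tested were called. An unadjusted p under 0.05 was found for 3: the kinase genes Chek2 (log2 fold change 0.54, limma adjusted p = 0.13) and Atm (-0.67, 0.14), and Cdkn2a (-0.48, 0.13), whose Arf product restrains MDM2. Chek2 passed without Visomitin 2 (0.042). Among 12 further inhibitor and antiproliferative genes, 1 fell and 0 rose (5.03% and 2.08% of all genes tested). Of the 12, 6 had an unadjusted p under 0.05, and the median was 0.24. The one that fell was Cdkn2b, for the CDK4 and CDK6 inhibitor p15, from 14.5 ± 0.64 to 7.62 ± 1.43 TPM (SD, n = 3; -0.86, limma adjusted p = 0.012). Btg1, the close relative of Btg2, was at 65.8 ± 7.37 and 88.8 ± 8.10 TPM and did not pass (0.43, limma adjusted p = 0.056), though it did after median-ratio scaling (0.024) and quantile normalization (0.025), with array weights (0.0065) and without Visomitin 1 (0.037).

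Cyclins and kinases of the G1 phase, on which p21 and p27 act, were listed with the transcription factor gene E2f1. Of these 9 genes 1 was lower, Cdk6, and 0 were higher (5.03% and 2.08% of all genes tested). Cdk6 went from 36.3 ± 2.96 to 24.6 ± 3.57 TPM (SD, n = 3; -0.55, limma adjusted p = 0.035) and lost the call when any library except Visomitin 3 was left out (adjusted p of at most 0.13). Ccnd1, for cyclin D1, had a larger difference that missed the threshold (-1.31, limma adjusted p = 0.051), at 104.01, 93.89 and 187.28 TPM in controls and 33.86, 44.01 and 77.84 TPM with Visomitin. It passed without Visomitin 3 (0.018), with array weights (0.011), when only genes with a mean of 5 TPM or more were tested (0.043), and when mitochondrially encoded genes were dropped (0.047). Library 3 was the highest of its group for Ccnd1, as it was for Trp53, Aen and Gadd45g. The same held for the sum of the stromal markers (318 TPM in control 3, 163 TPM in Visomitin 3). It also held for the sums of the G1 list (530 and 421 TPM) and of the proliferation genes (1771 and 1829 TPM). The part of stromal RNA, or of any other source, in these values was not tested. Of 20 proliferation genes 0 passed limma (7.1% of all genes tested passed), 1 had an unadjusted p under 0.05 (Ccnb2, 0.40, limma adjusted p = 0.070) and the median was -0.06. Their summed level was 1574 to 1771 TPM in the controls and 1461 to 1829 TPM with Visomitin, so the groups overlap. Ccnb2 passed without control 2 (0.046), with array weights (0.029) and after quantile normalization (0.049).

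ATF4-linked stress genes, a list chosen with their rise in these data known and so no independent support, gave 4 higher genes of 7 (2.08% of all genes tested), with a median of 1.03. Log2 fold changes were 2.67 for the pseudokinase gene Trib3, 1.41 for Ddit3, which encodes CHOP, and 1.03 for the asparagine synthetase gene Asns, beside 1.42 for Gadd45a. The fourth, Chac1, was at 1.34 ± 0.57 and 5.51 ± 1.10 TPM (SD, n = 3), and Atf4 itself did not pass (0.39, limma adjusted p = 0.070). Atf3 (0.01, limma adjusted p = 0.95) and Ppp1r15a (0.18, 0.40) did not pass either. Chac1, Atf4, Atf3 and Ppp1r15a are named after their values were seen.

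**Figure D4:**
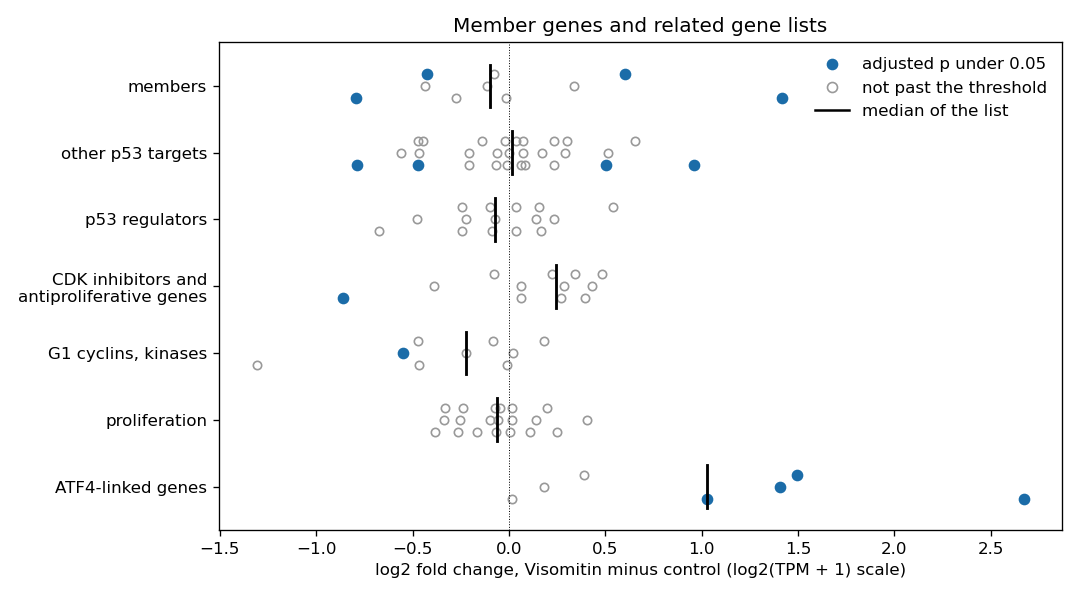
Log2 fold change (horizontal axis, log2(TPM + 1) scale) of each tested gene in 7 lists; filled points have an adjusted p under 0.05 and black bars are list medians. The median of the members (-0.10) and of the other p53 targets (0.02) lie near 0, with calls on both sides. In the ATF4-linked list, chosen with its rise in these data known, 4 of 7 genes are called higher (2.08% of all genes tested).

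Likeness of pattern was measured as the root mean square difference in log2(TPM + 1), centred on each gene's mean, over the 6 libraries, among 8612 other genes. Gadd45a was nearest to Pck2 (0.16), the mitochondrial phosphoenolpyruvate carboxykinase gene, and Hpse (0.19), the heparanase gene, larger distances than the nearest ones of the other 5 genes compared. Cdkn1b was nearest to Gyg (0.035) and Rell1 (0.039), Aen to Procr (0.053) and Pcdhgc3 (0.061), and Mdm2 to Pxn (0.016) and Acads (0.025). Trp53 was nearest to Smyd2 (0.018) and Cdc25a (0.025), and Cdkn1a to Pik3c3 (0.020) and March6 (0.023). Such distances over 6 libraries are a description only.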

How the data were processed

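Per the submitters' processing notes, fastp, HISAT2 and StringTie were used; no source used here gives versions, genome build, annotation or whether counting used strand. Per the labels' protocols, RNA was DNase-treated and made into stranded mRNA libraries. The deposited values are TPM, computed by the authors per gene within each library and used unscaled. TPM hold neither counts nor depth, so the precision that depth allows is unknown. Symbols came from a reference table (51884 of 57180 identifiers matched).

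The 11753 genes reaching 1 TPM in 3 or more of the 6 libraries were fitted as log2(TPM + 1), pseudocount 1, with limma 3.58.1 in R 4.3.3 (eBayes with trend, group as the only term, two-sided, Benjamini-Hochberg adjustment, threshold 0.05), after the script was tested on simulated data. Folds on this scale understate changes of low genes. The members and lists were chosen with earlier results of these data known. Named genes are the members, up to 3 of lowest p from each of 6 related lists, and the 2 genes most alike in pattern with a mean of at least 5 TPM; others are marked as named after their values were seen. The 16 alternatives varied pseudocount, filter, scaling, mitochondrial genes, trend, weights, a block, and left out each library. The labels state no pairing. Protein levels were not analysed here.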

Additional observations from a re-analysis of the deposited data

How the results depend on the processing

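Gadd45a kept its call under all 16 alternatives. The number of the 10 genes that fell, 2, became 0 with no filter on low values, where 22323 genes were tested, and 0 without the trend; with a library left out it was 0 to 2, and the number that rose was 1 to 2. Fits without a library have fewer than the 4 residual degrees of freedom of the full fit, so a lost call need not depend on that library. Of all genes tested, 244 were higher and 591 lower. These counts became 73 and 308 with no filter and 1263 and 1572 with array weights; median-ratio scaling gave 481 higher (689 lower) and quantile normalization 557 (657 lower). With a library left out, the higher genes numbered 64 to 420 and the lower 244 to 561. Gadd45b, with a log2 fold change of -0.01, was 0.028 under median-ratio scaling and 0.034 under quantile normalization, and lay between -0.095 and 0.079 with a library left out (above 0 without control 2 or Visomitin 3). Ccng1 lay between -0.26 and 0.044, above 0 without control 1. The cause was not tested. Among related genes, Sesn2, Ak1 and Cdk6 also lost their calls with no filter or no trend, and Fdxr, Cdkn2b and Chac1 with no filter. With the library number as a replicate block, 2 of the 10 genes rose and 2 fell, and 308 of all genes were higher and 799 lower. The block also gave calls to Ccnd1 (adjusted p = 0.00064), Ccne1 (0.042), Chek2 (0.044) and Btg1 (0.049). Residual correlations within a number were 0.046, 0.020 and 0.17, and only those of number 3 matched best with each other, so the numbers are not shown to pair libraries. The Gadd45a share differed by 23.1 to 26.7 percentage points with a library left out. TPM hold no depth, so no limit from depth can be given.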
